A study of Schizosaccharomyces japonicus with 2 samples.

Results

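The small RNA described here lies on both sides of a long, nearly empty stretch in the middle of supercontig 1 of the fission yeast Schizosaccharomyces japonicus, between bases 1790001 and 2031000. A member is a distinct position, that is, a start, an end and a strand, with a mapped span of 21 to 28 nt whose leftmost base falls in these 241 kb. Replicate 1 held 15048 such positions of 223429 listed in all, and replicate 2 held 48223 of 474395. Over both libraries there were 55104 distinct positions of 594345. The region was selected on the number and place of reads in these libraries, so those values are a description. Strand, mapping score and the spacing of positions were not used to choose it, and span was used only as the limit of 21 to 28 nt.

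The series holds 1 group of 2 libraries, named replicate 1 and replicate 2, made to isolate and describe small RNA of the wild type. Both came from log-phase cells of strain yFS275, and the labels name no mutant allele, drug or second condition. The labels do not tie the libraries to separate cultures, and their spread may be technical. Replicate 1 held 3086539 mapped reads and replicate 2 held 3492513. A large part of each lay in bases 1 to 37000 of supercontig 3, called the block, and read numbers below are given as RPM, reads per 1000000 reads of 21 to 28 nt outside the block. This total was 889190 reads in replicate 1 and 2457514 in replicate 2. With 2 libraries an exact paired permutation test between the sides cannot give a p below 0.5, so no p-values are given. A difference is instead set beside the spread between the libraries.

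In fission yeasts, Dicer cuts double-stranded RNA into small duplexes with short 3′ overhangs, and Argonaute keeps a strand of the duplex as a guide. In Schizosaccharomyces pombe such RNA arises largely from the repeats that flank the central core of each centromere, where it directs the methylation of histone H3 on heterochromatin. In Schizosaccharomyces japonicus, retrotransposons are known to lie at centromeres and telomeres and to give rise to small RNA. Whether the empty stretch described here is part of a centromere was not analysed, since no annotation of these supercontigs was used.

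Mapped small RNA was dense to the left of the stretch, sparse or absent within it, and dense again over a shorter distance to its right. No genome sequence was used, so whether all bases of the stretch could receive reads was not analysed. In replicate 1 the last base of the left side was 1861015 and the first base of the right side was 1981083. In replicate 2 these were 1861013 and 1981077. The borders of the libraries lay within 10 bases of each other on both sides. Between them lay 120067 bases in replicate 1 and 120063 in replicate 2. Replicate 1 had 0 reads in the stretch, which allows up to 0.0250 reads per kb, and replicate 2 had 5 reads. Reads per kb outside it were 655 on the left and 304 on the dense part of the right in replicate 1, and 2562 and 2351 in replicate 2. In replicate 2 the 5 reads amount to 0.0416 reads per kb, so the stretch was not wholly empty in the deeper library but lay far below both sides.

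Of the 5 reads, 3 had a mapping score of 37, the highest in the files. A pair of them overlapped on the plus strand, at bases 1945491 to 1945511 and 1945492 to 1945512, and the third was on the minus strand at bases 1972182 to 1972203. The other reads had a score of 0, at bases 1895234 to 1895254 and 1896220 to 1896241, both on the minus strand. A score of 0 was taken to mean that several places match the sequence equally well, of which the files list 1. The sides were divided in the middle of the longest stretch with no read in either library, at base 1920854, so that 2 of these 5 reads count on the left and 3 on the right.

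The region held 53034 reads in replicate 1, which is 5.96% of the reads outside the block (95% Clopper-Pearson interval 5.92 to 6.01). In replicate 2 it held 231432 reads, or 9.42% (9.38 to 9.45). The mean was 7.69% ± 2.44 (SD, n = 2). These intervals, like all those below, cover counting error only, since PCR copies were not marked by molecular identifiers, and the libraries differed by far more than counting error.

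Most of these reads lay on the left. The left side had 46481 reads in replicate 1 and 181926 in replicate 2, and the right side had 6553 and 49506. The left side held 87.6% of the region's reads in replicate 1 (87.4 to 87.9) and 78.6% in replicate 2 (78.4 to 78.8), with a mean of 83.1% ± 6.39 (SD, n = 2). The left had 7.09 times the reads of the right in replicate 1 and 3.67 times in replicate 2, so that the left was the larger side in both libraries but by different amounts.

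The ends of the region differ. The 10 kb before its first base held 2987 and 22499 reads in replicates 1 and 2, and the first 10 kb inside held 9742 and 26827, so dense small RNA goes on past the left border. The last 10 kb inside held 37 and 75 reads, and the 10 kb after held 294 and 326. Of spans just at the limits, 20 nt had 27 and 119 reads in the region and 21 nt had 11051 and 26471, while 28 and 29 nt had 0 reads in both libraries.

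**Figure D1:**
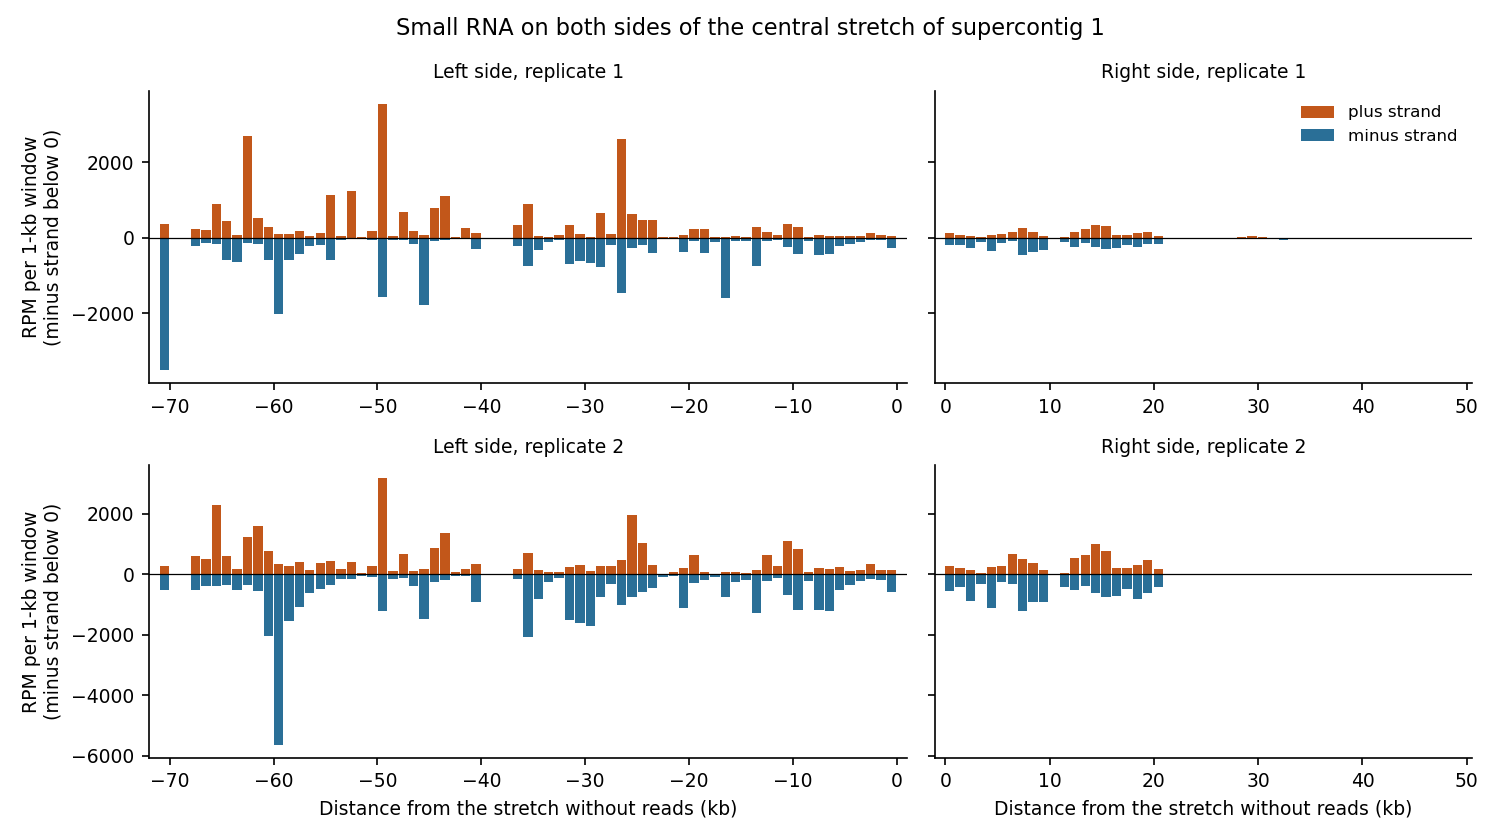
Reads of 21 to 28 nt in windows of 1 kb, in RPM (plus strand above 0, minus strand below), against the distance in kb from the stretch without reads, for the left side and the right side in each replicate. The left side is dense along 61 of 71 windows, while on the right the 20 dense windows lie next to the stretch.

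The left side was densely covered along almost its whole length. A window of 1 kb was called dense at 100 RPM or more in each library, and 61 of 71 windows were dense on the left (85.9%) and 20 of 50 on the right (40.0%). Over all windows outside the block, 606 of 11703 were dense, which is 5.18%. As the region was chosen for its reads, nothing is read from that contrast. Levels differed widely along the left. Dense windows there ran between 106 and 5114 RPM in replicate 1 (median 592) and between 118 and 5965 RPM in replicate 2 (median 903). On the right they ran between 121 and 700 RPM in replicate 1 (median 326) and between 367 and 1732 RPM in replicate 2 (median 1027). The highest windows of the left thus lay well above any on the right, while the medians of the sides were less far apart, and in replicate 2 the right had the higher median.

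The 5 windows of the left with the highest mean RPM began at bases 1811001, 1801001, 1834001, 1790001 and 1798001. The window at 1811001 had 5114 RPM in replicate 1 and 4380 in replicate 2. The window at 1801001 had 2126 and 5965 RPM, and that at 1834001 had 4073 and 1493 RPM. The windows at 1790001, with 3879 and 805 RPM, and at 1798001, with 2819 and 1607 RPM, were also lower in replicate 2, so that only the window at 1801001 among these 5 was higher there. In replicate 1 a single position held 83.3% of the reads of the window at 1790001, and 85.5% of that window's reads were of 21 nt. In replicate 2 its top position held 15.2% and 21-nt reads made up 11.5%.

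The right side had 5 leading windows of more even height, beginning at bases 1988001, 1995001, 1996001, 1989001 and 1985001. The window at 1988001 had 700 RPM in replicate 1 and 1732 in replicate 2, and the window at 1995001 had 578 and 1641 RPM. The other three, at 1996001, 1989001 and 1985001, had 606, 549 and 419 RPM in replicate 1 and 1524, 1309 and 1377 RPM in replicate 2. All 5 were higher in replicate 2, as were most dense windows outside the block, of which 140 of 606 were lower there.

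The leading positions of the left had very different read numbers in the 2 libraries. The position with the highest mean RPM was 21 nt long on the minus strand, bases 1790436 to 1790456, with 2874 reads in replicate 1 and 22 in replicate 2. A 24-nt position on the plus strand, bases 1811739 to 1811762, had 403 and 2193 reads. The third, 23 nt on the plus strand at bases 1798081 to 1798103, had 1081 and 21 reads. Of these 3, the first and the third were far higher in replicate 1 and the second was higher in replicate 2.

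On the right the 3 leading positions were on the minus strand and had more reads in replicate 2. A 24-nt position at bases 1988794 to 1988817 had 63 reads in replicate 1 and 548 in replicate 2. A 22-nt position at bases 1985510 to 1985531 had 44 and 330 reads, and a 23-nt position at bases 1988771 to 1988793 had 45 and 286. The first and the third of these lie end to end. The next in rank, with 37 and 272 reads at bases 1988409 to 1988430, was on the plus strand. All of these positions of the left and the right had a score of 0 in both libraries. Since each sequence of this kind is listed at 1 of its places in each library, a difference between the libraries at such a position can come from which place was listed, and the part this played was not tested.

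Reads were more concentrated on the left in replicate 1. The 10 positions with the most reads held 18.5% of the left's reads in replicate 1 and 6.95% in replicate 2, and on the right 6.07% and 5.91%. Positions with 1 read made up 67.1% and 53.8% of positions on the left and 69.8% and 55.2% on the right. Most distinct positions were therefore seen a single time on either side in both libraries.

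A position found in one library was often absent from the other. On the left 6767 positions were in both libraries, 58.3% of those of replicate 1 and 18.5% of those of replicate 2. On the right 1400 were in both, 40.7% of those of replicate 1 and 12.0% of those of replicate 2. For positions of the left with a score of 0, the shared part was 52.4% in replicate 1 and 17.3% in replicate 2. With a score above 0 it was 74.0% and 21.2%. For the right these values were 40.6% and 11.8% with a score of 0, and 41.7% and 14.3% above 0. The deeper library also had more positions. Start points were fewer than end points. On the left there were 8250 distinct 5′ ends and 9518 distinct 3′ ends in replicate 1, and 21609 and 26110 in replicate 2. On the right there were 2826 and 3120 in replicate 1, and 7692 and 9038 in replicate 2. Distinct 5′ ends were thus fewer than distinct 3′ ends on both sides in both libraries.

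Dense windows on both sides gave reads of both strands. Dense windows with at least 10% of reads on the minor strand in both libraries were called both-strand, and those with under 1% in both were called one-strand. Of the dense windows, 48 of 61 on the left and 20 of 20 on the right were both-strand, against 454 of 606 over all windows outside the block (74.9%). No dense window of the region was one-strand, against 41 of 606 (6.77%). The other 13 dense windows of the left fell between these limits. The share of the left lay near that of all dense windows, while every dense window of the right was both-strand.

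Strands were nevertheless unequal within windows. The plus-strand share of dense windows ran between 0.975% and 97.9% on the left in replicate 1 and between 5.35% and 87.4% in replicate 2. On the right it ran between 13.9% and 63.1% in replicate 1 and between 11.5% and 66.6% in replicate 2. The majority strand was the same in both libraries in 53 of 61 windows on the left and 18 of 20 on the right. Across dense windows the plus-strand shares of the libraries had a Pearson r of 0.91 on the left (61 windows) and 0.95 on the right (20 windows). These are descriptions over neighbouring windows of the same 2 libraries.

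Some windows with the same majority strand lay side by side. The 61 dense windows of the left fell into 34 runs, many of them of 1 window, and the 20 of the right into 8. Windows whose majority differed between the libraries were kept apart as mixed. Whether there were fewer runs than the strand shares alone would give was not tested. On the left the longest run was 7 windows with mostly minus-strand reads, bases 1851001 to 1858000, and other minus-strand runs covered bases 1800001 to 1806000 and 1829001 to 1834000. On the right minus-strand runs of 5 windows stood at both ends of the dense part, in the windows that begin at bases 1981001 to 1985001 and at bases 1997001 to 2001001. Between them lay a run of 3 windows with mostly plus-strand reads, bases 1994001 to 1997000. The minus strand led in 32 windows of the left and 14 of the right, and the plus strand in 21 and 4. These runs were picked after their values were seen.

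Summed over a side, the plus strand held 47.9% and 40.6% of reads on the left in replicates 1 and 2, against 37.5% and 36.5% on the right. The left was higher by 10.5 points in replicate 1 and 4.04 points in replicate 2. The side values did not overlap, but the second difference was smaller than the spread between the libraries on the left. With each position counted once, the shares were 42.3% and 44.2% on the left and 42.5% and 47.6% on the right, so the right was higher in both. With only reads of a score above 0 the shares were 41.3% and 37.6% on the left and 38.6% and 43.7% on the right, and the order differed between the libraries. The lower plus-strand share on the right was therefore seen in both libraries with all reads, and not with positions counted once or with scores above 0. In the rest outside the block the plus strand held 48.2% and 42.0%.

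Reads of 23 nt were the most frequent on both sides in both libraries. They made up 27.6% and 35.3% of reads on the left in replicates 1 and 2, and 39.0% and 36.9% on the right. In the rest outside the block they made up 25.6% and 34.2%. The left was lower than the right by 11.3 points in replicate 1, but by only 1.63 points in replicate 2. The second difference is close to the SD between libraries on the right (1.44) and smaller than that on the left (5.43). Counted once per position, 23-nt positions were 31.8% and 29.4% on the left and 33.6% and 28.7% on the right, and the sides changed order between the libraries.

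The difference in replicate 1 lay with shorter reads. Reads of 21 nt made up 22.4% and 11.5% on the left, and 9.98% and 11.3% on the right. In replicate 1 the left exceeded the right by 12.4 points, and in replicate 2 by 0.119 points. The rest outside the block had 23.2% and 13.4%. With each position counted once, 21-nt positions were 13.8% and 13.7% on the left, 11.7% and 13.7% on the right, and 17.9% and 15.9% in the rest, so the left of replicate 1 was near the rest in reads and nearer the right in positions. Among the 21-nt positions of the left in replicate 1, those that begin at bases 1790436, 1806252 and 1798089 had 2874, 861 and 763 reads.

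**Figure D2:**
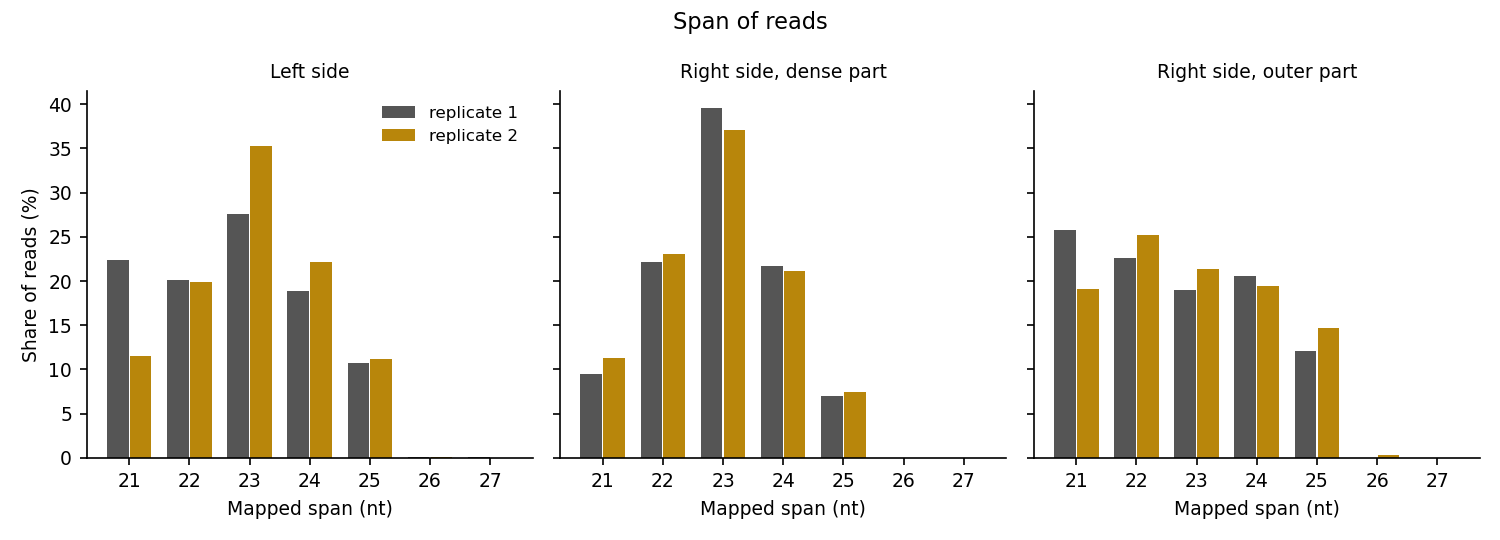
Share of reads (%) by mapped span (nt) on the left side, in the dense part of the right side and in its outer part. The outer part begins at base 2002001. Grey bars show replicate 1 and ochre bars replicate 2. Reads of 23 nt are the tallest bar on the left and in the dense part of the right. The 21-nt share of the left is 22.4% in replicate 1 and 11.5% in replicate 2. In the outer part the tallest bar is 21 nt in replicate 1 (25.8%) and 22 nt in replicate 2 (25.2%).

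On the RPM scale used here, the libraries differed in direction over some windows of the left and none of the right. The log2 of the RPM in replicate 2 over that in replicate 1 had a median of 1.32 over the 61 dense windows of the left, with a range of −2.27 to 1.88. Over the 20 dense windows of the right the median was 1.46, with a range of 1.11 to 1.99. Over all dense windows outside the block it was 1.37. In 16 of the 61 windows on the left and 0 of the 20 on the right the RPM was lower in replicate 2, against 140 of 606 over all (23.1%). The left is near that background, and the right lies below it. These directions depend on the RPM total. With all reads as the total, the medians were 2.05 on the left and 2.73 on the right. The number of windows below 0 with that total is not given here.

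The 16 windows of the left that were lower in replicate 2 differed from the other 45 in other measures too. They held 53.6% of the left's reads in replicate 1 and 22.5% in replicate 2. Reads of 21 nt made up 30.3% and 12.8% of them, against 13.2% and 11.1% in the other 45 windows. Reads of 23 nt made up 22.0% and 24.0%, against 34.0% and 38.5%. Their median top position held 21.2% and 12.2% of a window's reads, against 7.77% and 7.75%. These windows, lower in RPM in replicate 2 although 15 of the 16 had more reads there, had a higher 21-nt share and a larger top position than the other 45 in both libraries. The windows were sorted by a ratio of the same libraries, so these values are a description.

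Across the 61 dense windows of the left, the log2 ratio had an r of −0.76 with the share of the top position in replicate 1, and 0.61 with the 23-nt share of replicate 1. With the shares of replicate 2 these were weaker on the left, −0.32 and 0.49. On the right they were −0.077 and −0.37 with the shares of replicate 1 and 0.23 and −0.016 with those of replicate 2, over 20 windows. The points share their 2 libraries, and the ratio and the shares come from the same reads. Log2 RPM itself had an r of 0.72 between the libraries on the left and 0.94 on the right.

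**Figure D3:**
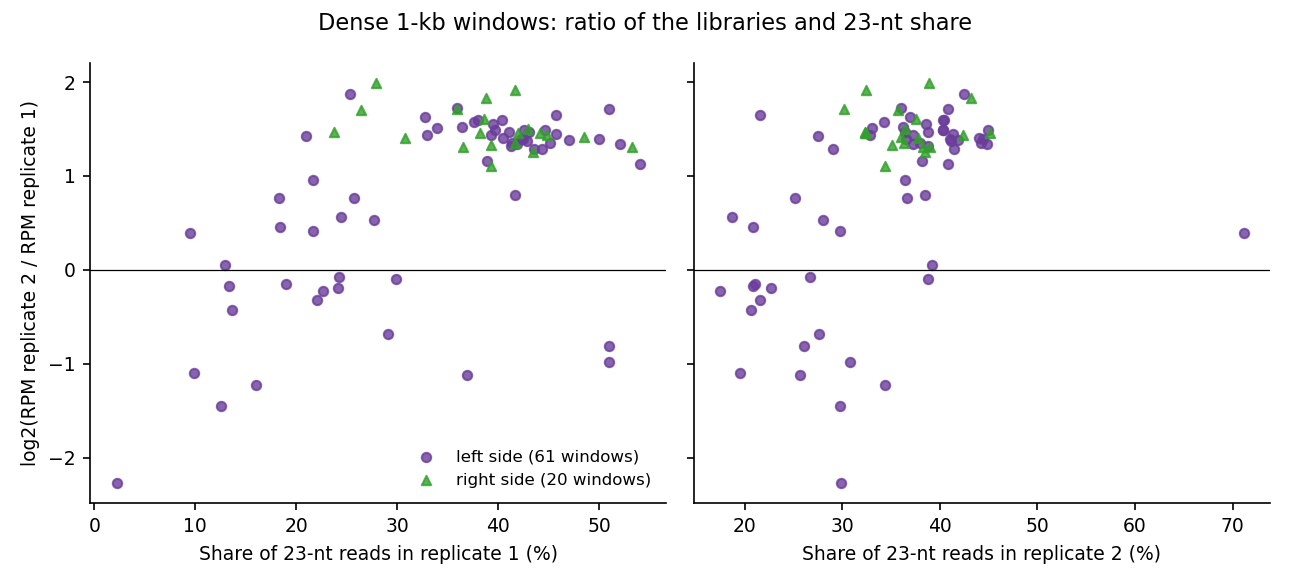
Log2 of RPM in replicate 2 over RPM in replicate 1 against the share of 23-nt reads (%) in each replicate, 1 point per dense window of 1 kb, for the left side (61 windows) and the right side (20 windows). Windows of the right lie between 1.11 and 1.99, while 16 windows of the left fall below 0.

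Most reads of either side came from sequences with more than 1 place. Reads with a score of 0 made up 87.8% and 78.8% on the left in replicates 1 and 2, and 93.0% and 95.4% on the right. The left was lower in both libraries, with a difference (left minus right) of −5.255 points in replicate 1 and −16.6 points in replicate 2. In the rest outside the block the share was 71.9% and 68.9%. Reads with a score above 0 alone, on the same RPM scale, left 18 dense windows on the left and 0 on the right, against 172 of 11703 outside the block (1.47%).

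Of those 18 windows, 1 was lower in replicate 2, at bases 1825001 to 1826000, with 584 RPM in replicate 1 and 356 in replicate 2 (log2 ratio −0.71). Over all windows outside the block 34 of the 172 were lower (19.8%). In the 16 windows that were lower in replicate 2 with all reads counted, 98.1% and 92.4% of reads had a score of 0, against 75.7% and 74.6% in the other 45 windows.

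Dense windows that rest mostly on reads with 1 place lay only on the left among those of the region. In 8 windows, beginning at bases 1794001, 1802001, 1803001, 1804001, 1849001, 1854001, 1855001 and 1856001, reads with a score of 0 made up less than 50% in each library. They were chosen after their values were seen. They held 2665 reads in replicate 1 and 19482 in replicate 2. Their 23-nt share was 39.1% and 37.6% and their plus-strand share 25.3% and 26.6%, so these shares differed between the libraries by less than those of the whole left. Their log2 ratios ran between 1.16 and 1.72.

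A sparse interval interrupted the left. Bases 1821001 to 1824000 held 27 reads in replicate 1 and 223 in replicate 2, and reads with a score of 0 made up 7.41% and 9.42% of these. Reads of 23 nt made up 37.04% and 43.0%. Bases 1791001 to 1793000 were empty in both libraries, as was the window at bases 1991001 to 1992000 within the dense part of the right.

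The outer part of the right side had a different make-up. The dense part was cut at a window border, before base 2002001. Positions that begin before this border reached base 2001874 in replicate 1 and 2002016 in replicate 2. The first base of the outer part was 2004863 in replicate 1 and 2002011 in replicate 2, so in replicate 2 the cut is not an end of reads. From base 2002001 on, 29 windows held 190 reads in replicate 1 and 314 in replicate 2, or 7.37 and 4.41 RPM per kb. Reads with a score of 0 made up 2.11% and 2.55% there, against 95.8% and 96.0% in the dense part. Reads of 23 nt made up 18.9% and 21.3%, against 39.6% and 37.04%, and reads of 21 nt made up 25.8% and 19.1%, against 9.51% and 11.3%. The outer part thus had few reads from sequences with several places and a lower 23-nt share than the dense part in both libraries, at low numbers of reads.

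The strands of the outer part hardly overlapped. Of 2510 bases covered in replicate 1, 22 were covered on both strands, and of 4034 in replicate 2, 67 were. In the dense part these were 8210 of 16293 and 15177 of 18035. The dense part also had far more reads per kb, and the part of depth in this difference was not tested. The outer window with the most reads, bases 2013001 to 2014000, had 47 reads in replicate 1 and 57 in replicate 2, with 2.13% and 1.75% on the plus strand. The outer part was set apart after the data were seen.

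Positions on opposite strands lay more often at the spacing of a duplex with 3′ overhangs of 2 nt than at neighbouring spacings. For each difference in start, positions of equal span on the plus and minus strands were paired. The number of pairs at −2 nt, which is such a duplex, was set over the average number at the other differences up to 10 nt away. The left of replicate 1 had 156 pairs at −2 nt and 107 ± 15.4 at its neighbours (SD over neighbouring differences), 1.46 times as many. The left of replicate 2 had 1637 and 1170 ± 84.4 (1.40 times). The right of replicate 1 had 46 and 30.0 ± 6.41 (1.53 times), and the right of replicate 2 had 462 and 356 ± 32.2 (1.30 times). These ratios pool all spans. On the left, of the spans of 21 to 25 nt, 23 nt had the lowest ratio (1.26 and 1.17 in replicates 1 and 2). The highest ratio there was at 25 nt (2.24 from 13 pairs and 2.06 from 192). On the right of replicate 2, 23 nt was again lowest (1.15) and 25 nt highest (1.74). The right of replicate 1 had another order, with few pairs: 0 at 25 nt, and the highest ratio, 2.31, from 9 pairs at 22 nt.

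The count at −2 nt was the highest of the 21 differences within 10 nt on both sides in both libraries. Among all differences within 40 nt this held on the left only: on the right, 8 of the 81 differences in replicate 1 and 3 in replicate 2 had more pairs than −2 nt. The highest on the right were −16 nt in replicate 1 (58 pairs, 1.93 times the mean of the neighbours) and −23 nt in replicate 2 (468 pairs, 1.31 times). On the left of replicate 1 the margin was small, with 156 pairs at −2 nt against 149 at 18 nt and at 37 nt. Neighbours within 20 nt gave the left a lower ratio, 1.33 in both libraries. With neighbours within 10 nt, the mean ratio was 1.43 ± 0.042 on the left and 1.41 ± 0.165 on the right (SD, n = 2). The sides thus differed by less than the spread between libraries. In the rest outside the block the ratio was 1.63 in replicate 1 and 1.39 in replicate 2.

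With scores above 0 only, the ratio was 2.14 and 1.62 on the left. On the right it was 0.769 in replicate 1, from 2 pairs, and 1.70 in replicate 2, from 50 pairs. At that depth the duplex spacing of the right was not detectable in replicate 1. In replicate 2 the 50 pairs stood against 29.4 ± 8.43 at the neighbours, the highest of which had 45, so the excess was not clear there either. In the 8 windows of the left that rest mostly on reads with 1 place, 35 pairs against a mean of 17.5 gave 2.00 in replicate 1, and 370 against 240 gave 1.54 in replicate 2.

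The 5′ ends of opposite strands that point away from each other were most often 2 nt apart. This count took pairs of any span. With 2 bases between the ends there were 978 pairs on the left in replicate 1, 1.82 times the mean of the neighbouring gaps, and 9738 in replicate 2, 1.63 times. On the right there were 284 pairs in replicate 1, 1.76 times, and 2982 in replicate 2, 1.60 times. A gap of 2 nt was the highest of 81 gaps compared on both sides in both libraries. With scores above 0 only, the right had 3 and 22 such pairs and the gap of 2 nt was not the highest there.

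Positions on the same strand that follow one another end to end were in excess by less. Their count over the mean of distances within 5 nt was 1.23 and 1.16 on the left and 1.36 and 1.15 on the right. Means were 1.19 ± 0.049 and 1.25 ± 0.1498 (SD, n = 2), a difference smaller than the spread on the right.

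**Figure D4:**
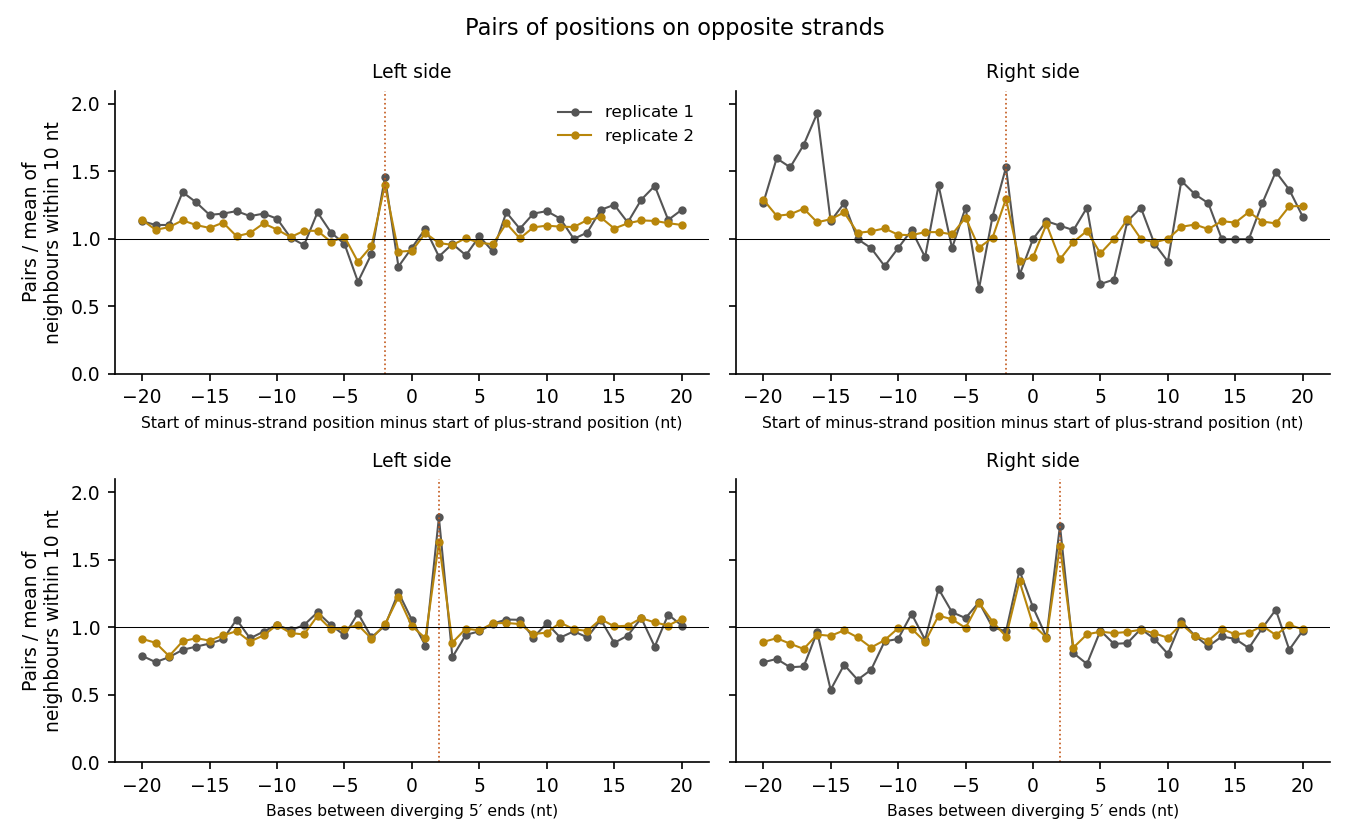
Pairs of positions on opposite strands by the difference of their starts (same span) and by the gap between diverging 5′ ends (any span), in nt, as the count over the mean of neighbours within 10 nt, for the left side and the right side, with 1 line per replicate. The duplex spacing of −2 nt reaches 1.46 and 1.40 on the left and 1.53 and 1.30 on the right, and the gap of 2 nt is the highest of 81.

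The profiles of the whole sides had low correlations with each other. Distinct 5′ ends were counted in bins of 20 nt, and the right was slid along the left in the same and in the mirrored orientation over 2505 placements each. The highest r was 0.144 in replicate 1 and 0.157 in replicate 2 in the same orientation, and 0.105 and 0.164 in the mirrored one. With these bins the highest placements differed between the libraries in both orientations. With scores above 0 only, the highest in the same orientation fell at a shift of 36.2 kb in both libraries (r 0.137 and 0.130), and with bins of 50 nt the highest mirrored ones fell at 6.65 and 6.45 kb (r 0.149 and 0.239). With bins of 20 nt and all positions, the median r over placements lay between −0.012 and 0.004.

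Runs of windows that resemble each other were found within a side. Windows of 1 kb were compared with all other places of the region in replicate 2, and runs of at least 3 such windows with r of 0.4 or more were then compared in replicate 1. Of 338 window and orientation pairs, 84 reached 0.4, and the median of the best r was 0.332. The runs gave 5 pairs of stretches, 4 within the left and 1 within the right, and 0 joined the sides. Single windows at 0.4 or more did join the sides in 10 cases. The search was added after the data were seen, and the r of replicate 2 was used to choose the pairs.

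On the left, bases 1810501 to 1812500 resembled bases 1814989 to 1816989 in the same orientation, with r of 0.73 in replicate 1 and 0.54 in replicate 2 over the whole stretch. Overlapping this pair, bases 1812001 to 1814000 resembled bases 1816809 to 1818805, with r of 0.524 and 0.475, so the values share part of their positions. The starts within these pairs are 4488 and 4808 bases apart. Bases 1844501 to 1848000 resembled bases 1826369 to 1829866 in the same orientation, with r of 0.425 and 0.396, and bases 1824001 to 1827000 resembled bases 1839846 to 1842846 in the mirrored orientation, with 0.45 and 0.58.

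On the right, bases 1988501 to 1990500 resembled bases 1998892 to 2000892 in the mirrored orientation, with r of 0.30 in replicate 1 and 0.50 in replicate 2. This pair lies inside the dense part, with 10391 bases between the starts. The first stretch had 1148 reads in replicate 1 and 7549 in replicate 2, and the second had 593 and 5530. Reads with a score of 0 made up 92.5% and 92.3% of the first and 92.4% and 92.6% of the second. Copies of 1 sequence share their reads between their listed places, and whether these stretches are copies could not be read from positions alone.

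**Figure D5:**
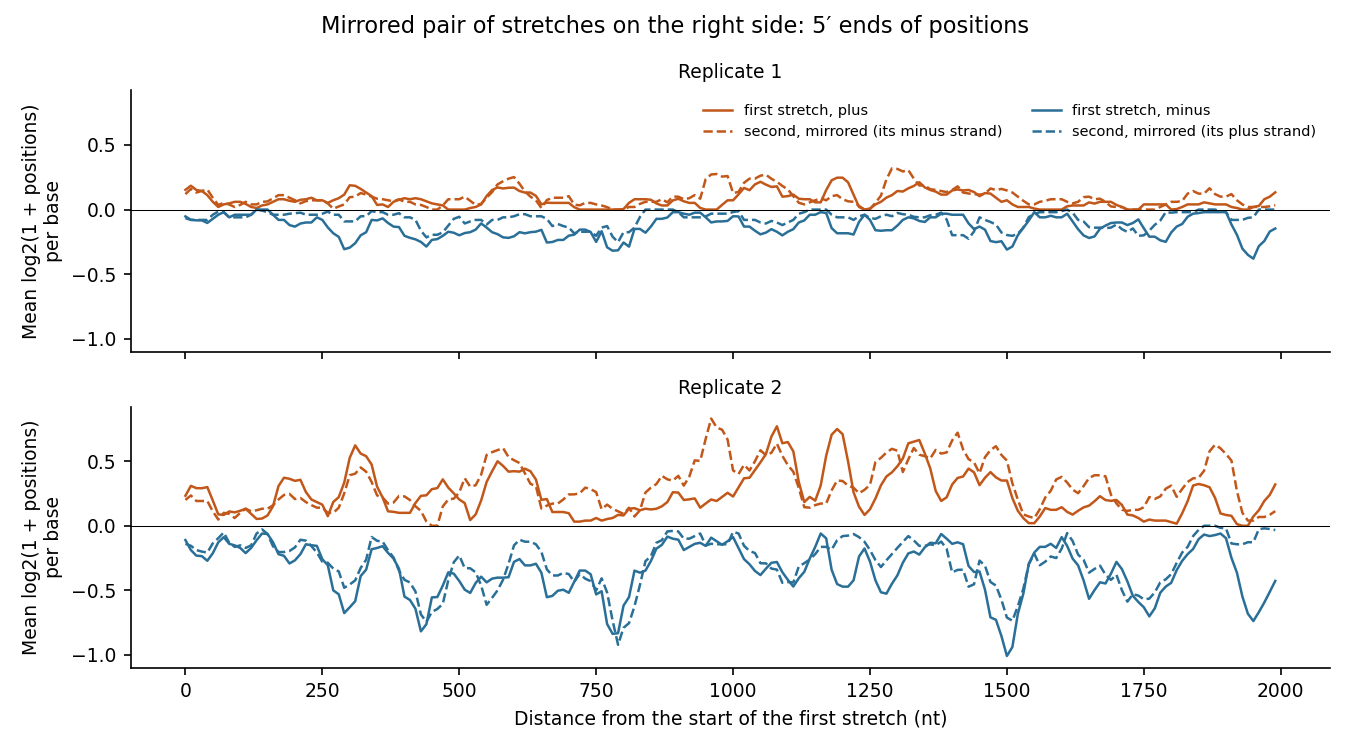
Mean log2(1 + positions) per base of 5′ ends along the mirrored pair of stretches on the right side, against the distance in nt from the start of the first stretch, in each replicate. Solid lines show the first stretch and dashed lines the second one turned round, with the plus strand of the first above 0, and the profiles have an r of 0.30 in replicate 1 and 0.50 in replicate 2.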

How the data were processed

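Per the labels' protocols, RNA between 10 and 40 nt was separated on a gel, ligated to adapters and amplified by PCR. Ligation needed a 5′ monophosphate and a 3′ hydroxyl, so other ends were not captured. The submitters' processing notes name BWA. Its version and settings, and the genome build, were not given in the sources used here. The deposited files list distinct sequences with 1 aligned place each and a name holding a whole number, read here as the count of identical reads. The authors deposited a mapping score of 0 to 37 beside each. No normalization is recorded in the deposited files, and libraries were kept separate.

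Positions are counted from 1 on the files' supercontigs. Each read was assigned to the 1-kb window of its leftmost base with Python 3.11.15, pandas 2.3.3, numpy 2.4.6 and scipy 1.17.1, and plotted with matplotlib 3.10.9. The counts of pairs and the search for resembling stretches were also run on simulated data. The simulated copies each drew their positions independently, whereas here a sequence with several places is listed at 1 of them. That run therefore does not show how well copies are found in these data. Library totals were 3086539 and 3492513 reads, and intervals are 95% Clopper-Pearson. The text names the 5 windows and 3 positions of each side with the highest mean RPM, and the borders of the stretch. Other windows were picked with their values known.

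The region, lists and limits were chosen with earlier results of these data known. The alternatives were reads with a score above 0, positions counted once, all reads as total, other limits for dense windows, moved windows, wider neighbours, wider bins and each library alone. Leaving out the outer part of the right, leaving out the windows of the left lower in replicate 2, the search for resembling stretches the RPM total kept with scores above 0, and the windows resting on 1 place were added after seeing the data. The gene table at hand belongs to another assembly and was not used, and no sequence was printed because the files hold none.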

Additional observations from a re-analysis of the deposited data

Results flagged for a closer look

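Reads shorter than 21 nt were left out of every comparison above. In the region there were 27 such reads in replicate 1, all of 20 nt, and 121 in replicate 2, of 19 or 20 nt. Each number is above the limit of 3 reads that a count of 0 allows, and the series has no control library. They correspond to 0.0509% and 0.0523% of the region's reads of 21 to 28 nt.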

How the results depend on the processing

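Of 67 alternative values for 16 results, 45 were labelled unmoved and 22 moved. A mean of the libraries counted as unmoved if it shifted by less than the spread between replicates. A count did so if it stayed within 1.5 times. The median log2 ratios are neither, so their labels do not rest on these limits. For results that are a mean of 2 libraries, each library alone always lies within their SD of that mean. Those alternatives could only count as unmoved. Of the values 0 changed sign, which shares, counts and duplex ratios cannot do. Differences between the sides were not among the 16 results, and the order of the plus-strand shares did change, as given above. With only reads of a score above 0, which then also made up the total for RPM, the region's share of reads was 4.06%, the left's share 93.5%, the plus-strand share of the right 41.2%, the duplex ratio 1.88 on the left and 1.23 on the right, dense windows 31 on the left and 2 on the right, the median log2 ratio of the right 1.09, and the same-orientation likeness 0.134. With each position counted once, the left's share was 76.5%, the share with a score of 0 was 71.0% on the left and 90.8% on the right, the plus-strand share of the right 45.0% and its 23-nt share 31.2%. With all reads as the total, the region's share was 4.17% and the median log2 ratio of the right 2.73. That of the left rose from 1.32 to 2.05, although it was labelled unmoved. Differences within 20 nt gave a duplex ratio of 1.33 on the left. With the RPM total kept, scores above 0 left 18 dense windows on the left and 0 on the right, an alternative added after seeing the data. Bins of 50 nt gave a likeness of 0.214 in the same and 0.194 in the mirrored orientation. Without its outer part, 95.9% of the right's reads had a score of 0. Each replicate alone gave the per-library values above, and 61 to 64 dense windows on the left and 20 on the right. The causes were not tested.

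No paired analysis was possible because there is 1 group, with no second condition to pair by replicate; left and right were compared within each library, where 2 libraries allow no test. Depth limits the stretch without reads, the outer part of the right, and the pair counts of the right with scores above 0.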
